A study of Mus musculus and Homo sapiens with 9 samples.

Results

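The calcium-dependent phosphatase calcineurin and the NFAT transcription factors were examined at the level of their genes. The members were taken by name, with earlier results of these data known, and are the factors NFATC1, NFATC2, NFATC3 and NFAT5, the calcineurin catalytic subunits PPP3CA, PPP3CB and PPP3CC, its regulatory subunit PPP3R1, and the regulators RCAN1 and RCAN3. They are 10 of the 64252 rows of the human table and, as the mouse genes of the same symbols, 10 of the 43432 rows of the mouse table. All 10 passed the filter on low counts in both tables, among 15819 human and 15350 mouse genes tested.

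RNA-seq libraries of 2 systems in which IRF2BP2 was depleted were used, 9 in all. J.gamma1, a T-cell acute lymphoblastic leukemia line derived from Jurkat as a single clone selected for a lack of phospholipase C gamma 1, carried a control hairpin (sh-NC, n = 2) or a hairpin against IRF2BP2 (sh-IRF2BP2, n = 2), and which of the study's hairpins was sequenced is not given in the sources used here. CD3+ T cells isolated from spleen came from Irf2bp2 conditional knockout mice (KO, n = 2) and from controls (WT, n = 3). The labels call these controls wild type, and the study's methods describe controls that carry the floxed Irf2bp2 alleles without Vav-iCre, a Cre that acts in all blood lineages and not in T cells alone. The KO and control mice were killed at 6 weeks of age, an age that the labels do not repeat for the sequenced cells. Nothing states whether the replicates of a group are separate cultures, or which mice gave which library, so that p-values measure the spread between these libraries, which may be technical.

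As background, a rise in cytosolic calcium, which follows T-cell receptor signaling through phospholipase C gamma 1, loads calmodulin. Calmodulin then activates calcineurin, a dimer of a catalytic and a regulatory subunit and the target of cyclosporin and tacrolimus. Calcineurin removes phosphates from NFATC1, NFATC2 and NFATC3, which enter the nucleus and drive cytokine and activation genes, while kinases such as GSK3 and DYRK return them to the cytoplasm. RCAN proteins bind and inhibit calcineurin. NFAT5 shares the DNA-binding domain but answers to osmotic stress without calcineurin. IRF2BP2 is known as a partner that represses NFATC2, also named NFAT1. RNA levels say nothing of the phosphorylation or the location of these proteins.

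The depletion was visible in the targeted gene. IRF2BP2 stood at 204 and 199 CPM (counts divided by the TMM-scaled library size in units of 1e6, used for all levels unless a length is named) in the sh-NC libraries and at 79 and 93.8 CPM in the sh-IRF2BP2 libraries, with a log2 fold change of -1.22 (SE 0.131, adjusted p = 0.0023 from the quasi-likelihood test of edgeR, adjusted by Benjamini-Hochberg over all genes). Mouse Irf2bp2 had 10654 counts over the WT libraries and 0 over the KO libraries, which is at least 2940-fold lower against a floor of 3 counts over the group. Total counts lay between 26648204 and 31120236 in J.gamma1 libraries and between 16668577 and 37177523 in mouse libraries, of which WT replicate 3 was the shallowest. All 12 T-cell markers were detected in every library of both tables. In J.gamma1 cells the summed level of 8 myeloid markers was at most 0.814 CPM. In the mouse, 9 erythroid markers summed to 127 to 208 CPM in WT and to 1150 and 1430 CPM in KO libraries. Of the 9, 8 were called higher, where 2.68% of all genes tested were. The 12 T-cell markers summed to 4980 to 5820 CPM in WT and to 3930 and 4170 CPM in KO libraries. Markers of B and plasma cells summed to 541 to 1230 CPM in WT and to 1520 and 1110 CPM in KO libraries. For myeloid markers the sums were 33.9 to 390 CPM in WT and 135 and 80.4 CPM in KO libraries. For NK cell markers they were 188 to 262 CPM in WT and 189 and 283 CPM in KO libraries. In such bulk samples fewer cells of a type and less RNA per cell cannot be told apart.

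In J.gamma1 cells RCAN3 was the member that rose with the knockdown. It encodes an inhibitor of calcineurin and lies at chr1:24502351-24541040 on the plus strand of hg38. RCAN3 was measured at 58.6 and 58.4 CPM in sh-NC and at 102 and 98.6 CPM in sh-IRF2BP2 libraries. The groups were far apart and the replicates close together, and the log2 fold change was 0.77 (SE 0.111, 95% interval 0.52 to 1.03, adjusted p = 0.0059). It was the 1 of 10 members called higher, where 5.83% of all genes tested were called higher, and 0 of 10 were called lower, where 5.32% of all genes were. At an unadjusted p under 0.05, 4 members were higher and 3 lower, where 14.3% of all genes tested were higher and 13.4% lower. DESeq2 called 3 members higher and 0 lower, where it called 9.38% higher and 8.63% lower of the genes to which it gave an adjusted p. The pass of RCAN3 held under every alternative setting run, with adjusted p between 2e-06 and 0.035.

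Its paralog RCAN1, at chr21:34513142-34615113 on the minus strand, stood on the other side. RCAN1 was measured at 64.6 and 62.2 CPM in sh-NC and at 52.3 and 43.9 CPM in sh-IRF2BP2 libraries. Both knockdown libraries lay below both controls, with a log2 fold change of -0.40 (SE 0.131, 95% interval -0.70 to -0.10), and the change did not pass the test (adjusted p = 0.093). RCAN1 is transcribed from a far upstream start and from an inner start, and the inner one is known as a target of calcineurin and NFAT. The deposited count is 1 value for the gene, so the 2 starts were not separated.

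The 3 promoters below are shown because the RCAN genes stood on opposite sides and because the inner RCAN1 promoter is the known NFAT-driven one. Each is the 250 bases before a start site of GENCODE 44, read 5′ to 3′ along the gene from hg38. Capitals mark the core of the NFAT site, GGAAA, and its reverse complement, TTTCC, found by a search of both strands, in which no matches overlapped.
RCAN1 inner start, chr21:34526964-34527213, minus strand: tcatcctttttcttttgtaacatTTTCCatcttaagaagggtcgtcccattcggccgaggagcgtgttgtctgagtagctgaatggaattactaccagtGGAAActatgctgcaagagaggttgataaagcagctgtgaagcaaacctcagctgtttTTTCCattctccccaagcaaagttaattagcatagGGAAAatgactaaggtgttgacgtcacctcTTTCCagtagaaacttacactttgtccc
RCAN1 upstream start, chr21:34615114-34615363, minus strand: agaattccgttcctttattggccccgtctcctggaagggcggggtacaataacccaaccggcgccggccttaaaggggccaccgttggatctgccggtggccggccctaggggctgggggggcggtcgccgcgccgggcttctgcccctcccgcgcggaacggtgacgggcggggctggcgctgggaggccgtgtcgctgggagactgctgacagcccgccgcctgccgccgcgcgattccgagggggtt
RCAN3, chr1:24502586-24502835, plus strand: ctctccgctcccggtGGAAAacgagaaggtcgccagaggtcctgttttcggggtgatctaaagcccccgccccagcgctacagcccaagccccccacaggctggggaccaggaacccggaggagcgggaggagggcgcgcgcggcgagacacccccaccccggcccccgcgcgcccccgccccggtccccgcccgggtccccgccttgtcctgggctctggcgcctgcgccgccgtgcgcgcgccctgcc

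The inner RCAN1 promoter held 5 core matches, a number reached by 0.406% of 19687 promoters of protein-coding genes in windows of the same length. The upstream RCAN1 promoter held 0, and the RCAN3 promoter 1, where 52.7% of all promoters held at least 1. The promoters compared were not matched in base composition, and the inner RCAN1 promoter was picked as the known NFAT-driven one. The percentages are thus a description and not a test. A match is a run of letters and not a measured binding site, and no binding data were analysed here.

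Among the NFAT factors of J.gamma1 cells NFAT5 differed most and NFATC1, NFATC2 and NFATC3 overlapped between the groups. NFAT5, at chr16:69565094-69704666 on the plus strand, was measured at 76.7 and 42 CPM in sh-NC and at 108 and 111 CPM in sh-IRF2BP2 libraries. The knockdown libraries were nearly equal and lay above both controls, whereas the controls differed widely from each other. The log2 fold change was 0.88 (SE 0.244, 95% interval 0.32 to 1.45), the adjusted p was 0.058 with edgeR and 0.0041 with DESeq2, and 5.83% of all genes tested had a larger log2 fold change. Without sh-NC replicate 1 the log2 fold change was 1.37 (adjusted p = 9.6e-06), and without sh-NC replicate 2 it was 0.51 (adjusted p = 0.023).

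The spread of NFAT5 between the controls ran beside the level of long transcripts. The longest coding transcript of NFAT5 has 13289 bases, and the 569 protein-coding genes with a transcript of at least 10 kb had a median log2 deviation from the mean of the 4 libraries of 0.05 in sh-NC replicate 1, -0.34 in sh-NC replicate 2, 0.13 in sh-IRF2BP2 replicate 1 and 0.19 in sh-IRF2BP2 replicate 2. The median log2 fold change of these genes was 0.29, against -0.01 for the 12169 with shorter transcripts. With the trend of each library on transcript length removed, an alternative chosen after seeing the data, NFAT5 had a log2 fold change of 0.60 (SE 0.152, adjusted p = 0.041). RCAN3 had 0.62 (adjusted p = 0.011) in the same fit. An overlapping same-strand lncRNA, ENSG00000260772, had 121 counts in sh-NC replicate 2 and at most 3 in the others, against 1302 counts of NFAT5 in that library, and the strand setting of the counting is not given in the sources used here.

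**Figure D1:**
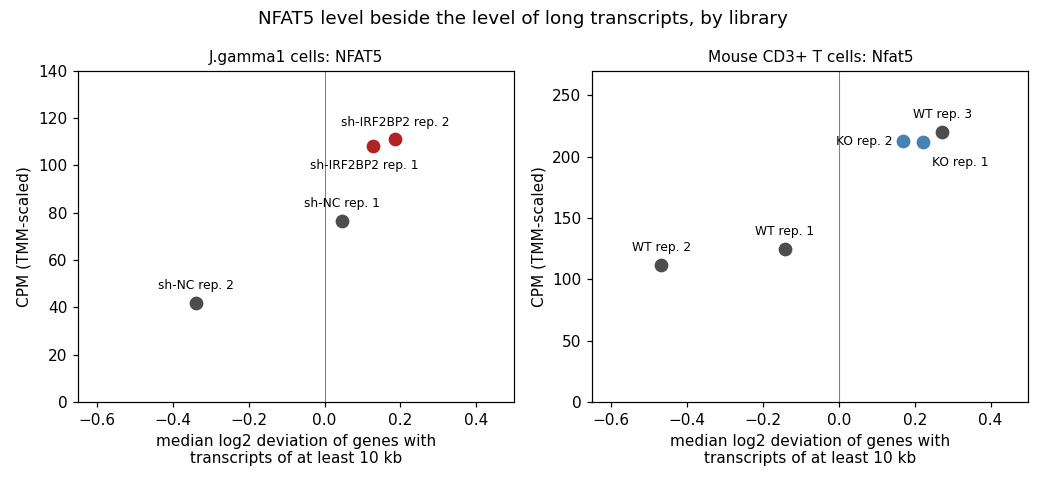
Level of NFAT5 (y axis, CPM with TMM-scaled library sizes) against the median log2 deviation, from the mean over the libraries of its table, of protein-coding genes with a transcript of at least 10 kb (x axis), 1 point per library, with J.gamma1 cells on the left and mouse CD3+ T cells on the right. The library with the lowest NFAT5 in each panel, sh-NC replicate 2 at 42 CPM and WT replicate 2 at 112 CPM, also had the lowest long transcripts, and WT replicate 3 lay beside the KO libraries.

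The NFAT factors that calcineurin controls did not pass the test in J.gamma1 cells. NFATC1 was measured at 41.3 and 44 CPM in sh-NC and at 44 and 45.1 CPM in sh-IRF2BP2 libraries (log2 fold change 0.06, 95% interval -0.22 to 0.34, adjusted p = 0.79). NFATC2, the partner of IRF2BP2, was at 64.3 and 45.4 CPM in sh-NC and at 49 and 47.8 CPM in sh-IRF2BP2 libraries. The NFATC2 knockdown libraries lay between the controls (log2 fold change -0.18, 95% interval -0.58 to 0.22, adjusted p = 0.54), and without sh-NC replicate 1 the value was 0.09. NFATC3 was at 172 and 142 CPM in sh-NC and at 186 and 167 CPM in sh-IRF2BP2 libraries (log2 fold change 0.17, 95% interval -0.15 to 0.49, adjusted p = 0.46). For NFATC1 and NFATC3 the intervals leave room for a change of up to 0.34 and 0.49 on the log2 scale.

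The calcineurin subunits of J.gamma1 cells each separated the groups without passing the test, and not all in 1 direction. The regulatory subunit PPP3R1, which binds calcium, was measured at 167 and 148 CPM in sh-NC and at 228 and 197 CPM in sh-IRF2BP2 libraries (log2 fold change 0.43, SE 0.133, adjusted p = 0.076). DESeq2 gave PPP3R1 an adjusted p of 0.031. The catalytic subunit PPP3CA was at 37.5 and 34.3 CPM in sh-NC and at 44.1 and 46.4 CPM in sh-IRF2BP2 libraries (log2 fold change 0.34, SE 0.126, adjusted p = 0.13). PPP3R1 and PPP3CA thus had positive values, and the other two catalytic subunits negative ones. PPP3CB was at 76.1 and 74.3 CPM in sh-NC and at 58.5 and 60.1 CPM in sh-IRF2BP2 libraries (log2 fold change -0.34, SE 0.112, adjusted p = 0.091). PPP3CC was at 25.4 and 24.7 CPM in sh-NC and at 19.2 and 19.4 CPM in sh-IRF2BP2 libraries (log2 fold change -0.38, SE 0.142, adjusted p = 0.13). Over all members, 7 of 10 had groups that did not overlap, where 58.3% of all genes tested had none with 2 libraries against 2, and the median log2 fold change was 0.12 against 0.01 over all genes.

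**Figure D2:**
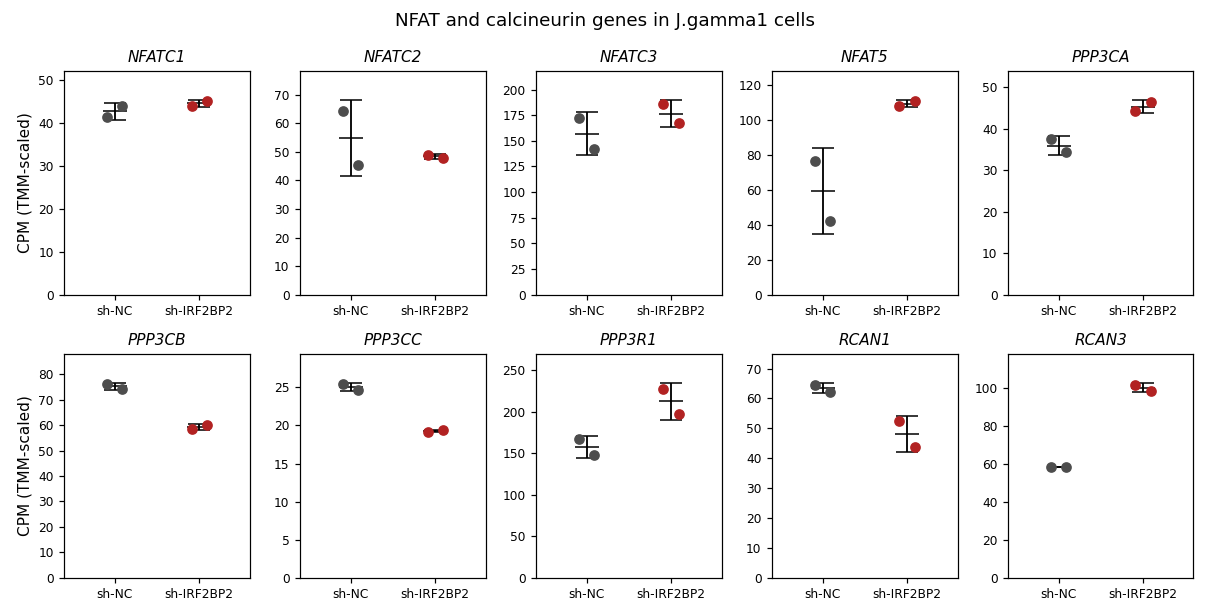
Level of each member in J.gamma1 cells (y axis, CPM with TMM-scaled library sizes, from 0), with 1 point per library, a horizontal line at the mean and bars of 1 SD (n = 2 per group). RCAN3 lay near 58 CPM in both sh-NC libraries and near 100 CPM in both sh-IRF2BP2 libraries, and NFAT5 differed between the sh-NC libraries.

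Levels were compared between genes only per length, as TPM, counts per kilobase of exon scaled to the same total in every library. In sh-NC cells PPP3R1 led with 135 ± 10.1 TPM (SD, n = 2), followed by NFATC3 with 62.3 ± 7.73 TPM, PPP3CB with 48.3 ± 0.353 TPM and RCAN1 with 35.9 ± 0.622 TPM. A lower set was formed by PPP3CC with 25.0 TPM, RCAN3 with 23.7 TPM, PPP3CA with 21.4 TPM, NFATC2 with 20.3 ± 4.75 TPM, NFATC1 with 16.2 TPM and NFAT5 with 12.9 ± 5.21 TPM. NFATC2 did not differ from its neighbours PPP3CA and NFATC1, nor NFAT5 from NFATC1, beyond the wider SD of each pair, whereas PPP3CC and NFATC1 with SDs of 0.249 and 0.884 TPM stood apart. In WT mouse T cells Ppp3r1 with 116 ± 10.7 TPM and Nfatc3 with 115 ± 19.1 TPM were level. Ppp3cb with 69.4 ± 11 TPM, Ppp3cc with 61.7 ± 13.3 TPM and Nfatc1 with 56.9 ± 2.82 TPM followed. Ppp3cc did not differ from Ppp3cb or Nfatc1 beyond the wider SD of each pair. With this length Ppp3cb lay above Nfatc1 in every WT library. Ppp3ca had 34.3 TPM, Nfatc2 27.2 ± 7.72 TPM, Nfat5 24.6 ± 11.1 TPM, Rcan3 23.2 ± 6.06 TPM and Rcan1 7.90 ± 1.51 TPM. Nfatc3 was the most abundant NFAT factor in both systems and Rcan1 the lowest member in the mouse cells, with either measure of length. Other places depended on that measure. With the longest coding transcript as length, RCAN1 in sh-NC cells had 56.5 ± 1.46 TPM and stood 3rd in place of 4th, above PPP3CB with 53.6 ± 0.851 TPM. NFATC1 in sh-NC cells then had 22.0 ± 1.01 TPM and stood 6th in place of 9th. Mouse Nfatc1 in WT cells then had 81.9 ± 4.01 TPM and stood 3rd in place of 5th.

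Each gene was also taken as a share of the members of its family, which does not depend on the scaling of the library. PPP3CA made up 23.2% and 22.1% of the summed per-length level of the catalytic subunits in sh-NC libraries and 31.7% and 32.4% in sh-IRF2BP2 libraries. PPP3CB made up 50.6% and 51.4% in sh-NC and 45.2% and 45.1% in sh-IRF2BP2 libraries, so that PPP3CB stayed the leading subunit. PPP3CC went from 26.2% and 26.5% to 23.0% and 22.5%. In the mouse the shares of Ppp3ca ran from 19.1% to 23.7% in WT and were 18.9% and 16.3% in KO libraries. NFAT5 made up 13.4% and 9.19% of the 4 NFAT members in sh-NC and 17.6% and 19.1% in sh-IRF2BP2 libraries. With NFATC4, which is not a member, added to the sum, these shares were 12.9% and 8.39% in sh-NC and 17.2% and 18.2% in sh-IRF2BP2 libraries. Mouse Nfat5 made up 9.57%, 8.62% and 13.8% in WT and 14.4% in both KO libraries. NFATC3 held between 53.1% and 57.0% of the 4 members in every J.gamma1 library.

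None of the members passed the test in mouse T cells. With edgeR 0 of 10 were called higher, where 2.68% of all genes tested were, and 0 of 10 lower, where 0.15% were. At an unadjusted p under 0.05, 0 were higher and 1 was lower, where 10.2% of all genes were higher and 6.01% lower. DESeq2 called 0 in both directions, where it called 6.23% higher and 1.9% lower of the genes to which it gave an adjusted p. Groups did not overlap for 3 of 10 members, Nfatc1, Ppp3ca and Ppp3r1, where 36% of all genes had no overlap with 3 libraries against 2. The median log2 fold change of the members was -0.09, against -0.02 over all genes.

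**Figure D3:**
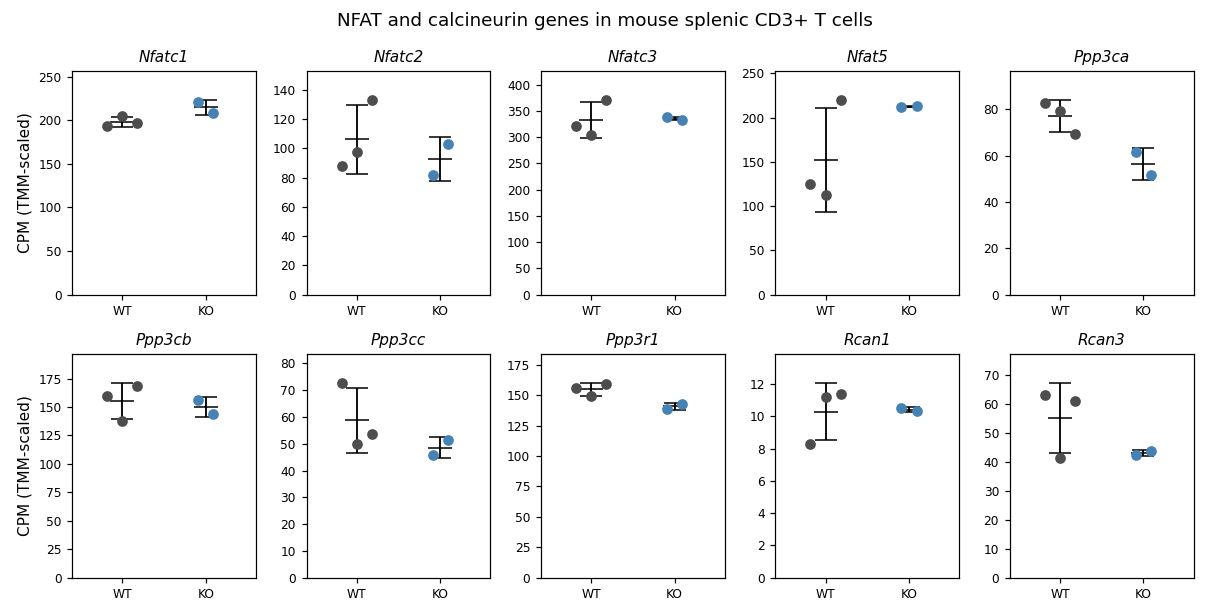
Level of each member in mouse splenic CD3+ T cells (y axis, CPM with TMM-scaled library sizes, from 0), with 1 point per library, a horizontal line at the mean and bars of 1 SD (WT n = 3, KO n = 2). Ppp3ca was lower in both KO libraries than in the WT libraries, and for Nfat5 WT replicate 3 at 220 CPM stood apart from the other WT libraries.

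The mouse catalytic subunit Ppp3ca was measured at 82.7, 79.5 and 69.6 CPM in WT and at 61.4 and 51.6 CPM in KO libraries. Every KO library lay below every WT library (log2 fold change -0.45, SE 0.143, 95% interval -0.79 to -0.11, adjusted p = 0.19). Ppp3r1 was at 156, 149 and 159 CPM in WT and at 139 and 143 CPM in KO libraries (log2 fold change -0.13, SE 0.114, adjusted p = 0.64). Ppp3r1 shares 462 exon bases with Wdr92 on the same strand, so its counts may be split between both genes. Ppp3cb was at 160, 138 and 168 CPM in WT and at 156 and 144 CPM in KO libraries, and Ppp3cc at 72.6, 50 and 53.7 CPM in WT and at 45.8 and 51.4 CPM in KO libraries. Both overlapped between the groups, with log2 fold changes of -0.05 (adjusted p = 0.90) and -0.28 (adjusted p = 0.55). The sums of T-cell markers were lower and those of erythroid markers higher in the KO libraries, as given above, and their part in the value of Ppp3ca was not tested.

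Mouse Nfat5 had the largest positive value of the members, and the size of that value depended on WT replicate 3. Which of the WT libraries was unusual was not tested. Nfat5 was measured at 125, 112 and 220 CPM in WT and at 212 and 213 CPM in KO libraries. WT replicate 3, at 16668577 total counts the shallowest library, lay above the KO libraries, and the log2 fold change was 0.48 (SE 0.287, 95% interval -0.21 to 1.17, adjusted p = 0.49). Without WT replicate 3 it was 0.83 (adjusted p = 0.027). The 280 protein-coding genes with a transcript of at least 10 kb moved alike, with median log2 deviations of -0.14, -0.47 and 0.27 in WT replicates 1, 2 and 3 and of 0.22 and 0.17 in the KO libraries. With the trend on length removed the log2 fold change of Nfat5 was 0.21 (adjusted p = 0.45).

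Among the factors that calcineurin controls, Nfatc1 was at 194, 205 and 197 CPM in WT and at 221 and 209 CPM in KO libraries, without overlap (log2 fold change 0.11, 95% interval -0.17 to 0.39, adjusted p = 0.71). Nfatc2 was at 87.8, 97.3 and 133 CPM in WT and at 81.7 and 103 CPM in KO libraries (log2 fold change -0.20, 95% interval -0.70 to 0.30, adjusted p = 0.72). Nfatc3 was at 321, 305 and 371 CPM in WT and at 338 and 333 CPM in KO libraries, with a log2 fold change of 0.01 (adjusted p = 0.98). The regulators overlapped as well. Rcan1 was at 8.26, 11.2 and 11.4 CPM in WT and at 10.5 and 10.3 CPM in KO libraries (log2 fold change 0.02, adjusted p = 0.98). Rcan3 was at 63.2, 41.3 and 61.1 CPM in WT and at 42.5 and 43.9 CPM in KO libraries (log2 fold change -0.35, 95% interval -0.84 to 0.14, adjusted p = 0.48). Rcan3 in WT replicate 2 lay below both KO libraries, and in the other WT libraries above them. The difference between the 2 systems in the change of RCAN3 was not tested, since the tables come from different species.

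**Figure D4:**
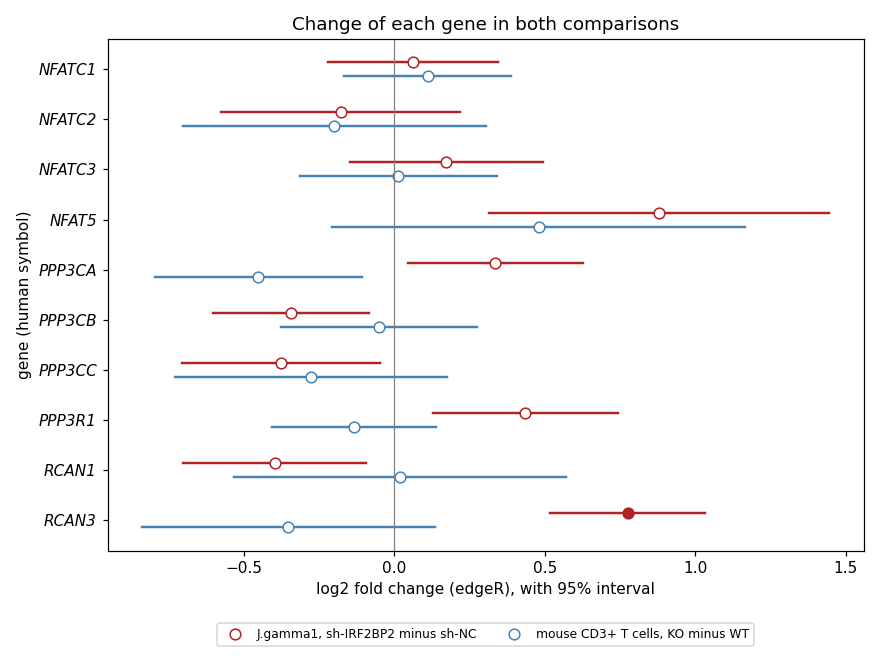
Log2 fold change of each member (x axis) with its 95% interval from edgeR, in J.gamma1 cells (sh-IRF2BP2 minus sh-NC, red) and in mouse CD3+ T cells (KO minus WT, blue), with the human symbols on the y axis. The filled point passed the test at an adjusted p under 0.05, and RCAN3 in J.gamma1 cells is the one member that did.

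Of the 3 genes of these families outside the members, NFATC4 alone passed the filter on low counts in J.gamma1 cells, and none did in the mouse. NFATC4, the remaining NFAT factor under calcineurin, was at 12.6 and 24.4 CPM in sh-NC and at 9.44 and 17.3 CPM in sh-IRF2BP2 libraries (log2 fold change -0.47, adjusted p = 0.44). PPP3R2, a regulatory subunit known from testis, had 0 counts in every J.gamma1 library, and RCAN2 at most 0.154 CPM. Nfatc4, Ppp3r2 and Rcan2 had 0 counts in all 5 mouse libraries, where 3 counts correspond to at most 0.188 CPM.

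Upstream of calcineurin, 12 genes of calcium release, calcium entry and calmodulin were measured. In J.gamma1 cells edgeR called 0 of 12 and DESeq2 called 1, which was higher, where they called 5.83% and 9.38% of all genes higher. At an unadjusted p under 0.05, 6 of the 12 were higher and 1 lower, where 14.3% of all genes tested were higher and 13.4% lower. All 12 had groups without overlap, as 58.3% of all genes had, and 10 of them had positive values, with a median log2 fold change of 0.33 against 0.01 over all genes. CALM3, which encodes calmodulin, was at 398 and 431 CPM in sh-NC and at 554 CPM in both sh-IRF2BP2 libraries (log2 fold change 0.42, adjusted p = 0.070). The mRNA of PLCG1, the enzyme for whose lack the line was selected, was present at 265 and 256 CPM in sh-NC and at 316 and 346 CPM in sh-IRF2BP2 libraries (log2 fold change 0.34, adjusted p = 0.11), which says nothing of a functional protein. In the mouse edgeR called 0 of 12, 1 was lower at an unadjusted p under 0.05, DESeq2 called 0, and the median log2 fold change was -0.12. Plcg1 was at 392, 350 and 540 CPM in WT and at 382 and 425 CPM in KO libraries.

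Of 6 genes listed under calcineurin binding proteins, 3 passed in J.gamma1 cells, 1 higher and 2 lower. The list also takes in proteins that form complexes with drugs that inhibit calcineurin, and the NFAT-binding scaffolds HOMER2 and HOMER3. Over all genes tested 5.83% were called higher and 5.32% lower. CABIN1, an inhibitor of calcineurin, rose from 118 and 128 CPM to 171 and 184 CPM (log2 fold change 0.53, adjusted p = 0.031). PPIA, the cyclophilin through which cyclosporin acts, fell from 1540 and 1640 CPM to 1120 and 1110 CPM (log2 fold change -0.51, adjusted p = 0.048). HOMER2, a scaffold that competes with calcineurin for NFAT, fell from 30.6 and 31.4 CPM to 17.8 and 18.7 CPM (log2 fold change -0.76, adjusted p = 0.014). None of the 3 calls held in every fit with 1 library left out. With a knockdown library left out, 1 remains in that group, and fewer genes were called over the whole table as well. CABIN1 did not pass without sh-IRF2BP2 replicate 1 or 2 (adjusted p = 0.13 and 0.19), with a looser filter that kept any gene with at least 1 count (0.086) or with the length trend removed (0.13). PPIA did not pass without sh-IRF2BP2 replicate 1 or 2 (adjusted p = 0.24 and 0.25) and had adjusted p between 0.052 and 0.066 under RLE scaling, the looser filter, all rows of the table kept or the GC trend removed. HOMER2 had an adjusted p of 0.060 without sh-IRF2BP2 replicate 1. In the mouse 0 of the 5 binding proteins that reached the minimum of the count filter in both groups were called. Homer2 was at 0.054, 0.166 and 0.25 CPM in WT and at 2.06 and 2.76 CPM in KO libraries (log2 fold change 4.04, adjusted p = 0.026). It reached the minimum, 0.274 CPM, in the KO libraries alone, so that it had to differ to be tested, and its pass is given as a value and not counted. Homer2 did not pass without WT replicate 1 (adjusted p = 0.085) or without KO replicate 1 or 2 (adjusted p = 0.13 and 0.22).

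Of 9 kinases and transport factors that take NFAT out of or into the nucleus, the kinases GSK3A and GSK3B fell in J.gamma1 cells. With these, 2 of 9 were called lower and 0 higher, where 5.32% of all genes tested were called lower and 5.83% higher. GSK3A went from 90.9 and 96.3 CPM to 66.7 and 62.4 CPM (log2 fold change -0.54, adjusted p = 0.025), and GSK3B from 210 and 170 CPM to 125 and 130 CPM (log2 fold change -0.57, adjusted p = 0.037). Neither passed when sh-IRF2BP2 replicate 1 (adjusted p = 0.095 and 0.16) or sh-IRF2BP2 replicate 2 (adjusted p = 0.17 and 0.12) was left out. DYRK2, another kinase of NFAT, was at 64.4 and 43.6 CPM in sh-NC and at 83.8 and 87.1 CPM in sh-IRF2BP2 libraries (log2 fold change 0.66, adjusted p = 0.054). The other 6 had adjusted p of at least 0.14, and the median over the 9 was 0.07. In the mouse 0 of 9 passed with edgeR, 0 at an unadjusted p under 0.05 and 0 with DESeq2, and Gsk3a and Gsk3b had log2 fold changes of -0.21 and 0.09.

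Downstream, 30 known target genes of NFAT in T cells were listed, of which 19 were too low to be tested in J.gamma1 cells and 7 had 0 counts in every library. Of the 11 tested, 8 reached the minimum of the count filter, 0.339 CPM, in both groups. Of these 2 rose and 0 fell, where 5.83% of all genes tested were called higher and 5.32% lower. At an unadjusted p under 0.05, CD40LG, TOX2 and CD69 were higher, where 14.3% of all genes tested were. At an unadjusted p under 0.05 and with DESeq2, 0 of the 8 were lower, where 13.4% and 8.63% of all genes were. Their median log2 fold change was 0.53 against 0.01 over all genes. The other 3 reached it in 1 group alone, IFNG and IL2RA in the knockdown and HAVCR2 in the control group. CD40LG, the ligand through which helper T cells activate B cells, rose from 17.6 and 18.9 CPM to 56.1 and 53.6 CPM (log2 fold change 1.58, SE 0.130, adjusted p = 0.0011). TOX2, a factor of exhausted and follicular helper cells, rose from 2.86 and 2.58 CPM to 8.79 and 10.7 CPM (log2 fold change 1.84, SE 0.246, adjusted p = 0.0046). IFNG and IL2RA had to differ to be tested, and are given as values and not counted. IL2RA, the alpha chain of the interleukin 2 receptor, had 4 counts over the sh-NC libraries and 151 over the sh-IRF2BP2 libraries, a ratio of 36.7 with a 95% exact binomial interval of 14 to 136, which covers counting error only (edgeR adjusted p = 0.0030). IFNG had 0 counts over the sh-NC and 25 over the sh-IRF2BP2 libraries, at least 8.10-fold higher against a floor of 3 counts over the group, and passed with edgeR (adjusted p = 0.028) but not without sh-NC replicate 2 (adjusted p = 0.061). The cytokine IL2 had a level in the sh-IRF2BP2 libraries of at most 0.137 CPM. CBLB, DGKA and TOX, higher in level, had adjusted p of 0.31, 0.48 and 0.67.

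In the mouse a row was found for 29 of the 30 target genes, since the symbol Faslg matched none. Of these 25 were tested, all of which reached the minimum of the filter in both groups. With edgeR 4 rose and 0 fell, where 2.68% of all genes tested were called higher and 0.15% lower. At an unadjusted p under 0.05, 12 were higher and 0 lower, where 10.2% of all genes were higher and 6.01% lower. DESeq2 called 8 higher and 0 lower, where it called 6.23% higher and 1.9% lower of the genes to which it gave an adjusted p. Lag3, an inhibitory receptor, was at 8.29, 8.02 and 6.88 CPM in WT and at 33.5 and 21.8 CPM in KO libraries (log2 fold change 1.84, SE 0.235, adjusted p = 0.015). Rnf128, a ubiquitin ligase of anergic T cells, was at 1.05, 0.747 and 0.438 CPM in WT and at 5.07 and 5.77 CPM in KO libraries (log2 fold change 2.82, adjusted p = 0.022). Ccl4, a chemokine, was at 1.35, 2.68 and 1.69 CPM in WT and at 9.32 and 9.72 CPM in KO libraries (log2 fold change 2.31, adjusted p = 0.025). Tox2 was at 4.99, 4.48 and 4.57 CPM in WT and at 11.7 and 18.3 CPM in KO libraries (log2 fold change 1.68, adjusted p = 0.027), and was the one gene of this list called in both systems. Il2 (adjusted p = 0.96), Il2ra (0.93), Nr4a1 (0.99) and Cd40lg (0.91) did not pass. Havcr2 (log2 fold change 2.42, adjusted p = 0.06), Ctla4 (1.59, 0.083) and Ifng (1.75, 0.086) did not pass either. For these, every KO library lay above every WT library. Of the 25 tested, 17 had positive and 8 negative values. The median of the 25 was 0.38 against -0.02 over all genes. The count of 4 became 0 without WT replicate 1, 1 without KO replicate 1 and 0 without KO replicate 2.

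NFAT5 has targets of its own, among them transporters of osmolytes and of amino acids. In J.gamma1 cells 6 of 7 were tested, of which 2 rose and 1 fell, where 5.83% of all genes tested were called higher and 5.32% lower. SLC5A3, the inositol transporter, was at 140 and 84 CPM in sh-NC and at 209 and 216 CPM in sh-IRF2BP2 libraries (log2 fold change 0.93, SE 0.218, adjusted p = 0.035). Its longest coding transcript has 11566 bases, and sh-NC replicate 2 was the lowest library here as for NFAT5. S100A4, a calcium-binding protein, was at 6.72 and 5.96 CPM in sh-NC and at 11 and 11.1 CPM in sh-IRF2BP2 libraries (log2 fold change 0.80, adjusted p = 0.044), and did not pass when sh-NC replicate 2 (adjusted p = 0.096) or a sh-IRF2BP2 library was left out (adjusted p = 0.18 and 0.15). SLC38A2, an amino acid transporter, fell from 445 and 368 CPM to 229 and 232 CPM (log2 fold change -0.82, SE 0.137, adjusted p = 0.011). The taurine transporter SLC6A6 and aldose reductase AKR1B1 had adjusted p of 0.48 and 0.35. In the mouse edgeR called 0 of the 6 tested. At an unadjusted p under 0.05, 1 was lower, and DESeq2 called 1 lower, where 6.01% and 1.9% of all genes were. Slc5a3 was at 22.2, 29.8 and 38.8 CPM in WT and at 32.3 and 45.1 CPM in KO libraries.

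**Figure D5:**
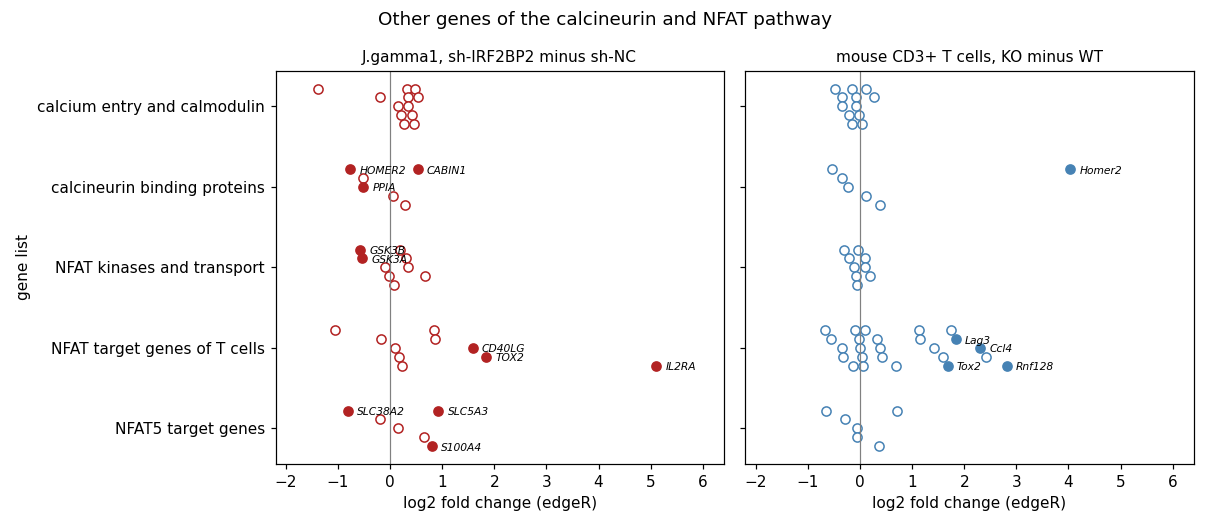
Log2 fold change from edgeR (x axis) of the tested genes of 5 lists around calcineurin and NFAT (y axis), in J.gamma1 cells (left) and mouse CD3+ T cells (right), with 1 point per gene, filled and named where it passed at an adjusted p under 0.05. IFNG in J.gamma1 cells is left out, since its controls had 0 counts, and IL2RA and mouse Homer2 reached the count filter in the depleted group alone. In the list of NFAT target genes the filled points lie to the right of 0 in both panels, among them IL2RA, which had to differ to be tested. Over all genes tested, 5.83% were called higher and 5.32% lower in J.gamma1 cells, and 2.68% higher and 0.15% lower in the mouse.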

How the data were processed

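RNA-seq of 4 J.gamma1 and 5 mouse CD3+ T-cell libraries was analysed. The authors aligned reads with HISAT2 2.2.0 and used StringTie, with builds hg38 and mm10, per the submitters' processing notes, and deposited, for every Ensembl gene, whole-number counts of each library. How StringTie's coverage became counts, and the strand setting, are not given in the sources used here. Rows were restricted to identifiers of GENCODE 44 or M21, which held at least 97.9% of the counts, filtered with filterByExpr, TMM-scaled and tested with edgeR 4.0.16 (quasi-likelihood, condition as the sole term) in R 4.3.3, each table on its own. Benjamini-Hochberg adjustment ran over all genes tested, and a gene passed at an adjusted p under 0.05. TPM used the union of exons of coding transcripts. Replicates differed by more than sampling noise (chi-square per gene of at least 20.0). Lists were counted over genes that reached the minimum of the filter in at least 2 libraries of each group, and in the closing section over all tested. Scripts were tested on simulated data.

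The members and lists were chosen with earlier results of these data known. Named were all members, IRF2BP2, PLCG1 and pathway genes that passed, at most 6 per list, and further genes were picked with their values known. Alternatives were DESeq2 1.42.0, upper-quartile or RLE scaling, a looser filter (any gene with at least 1 count), counts divided by 2, all rows, the replicate number as a block, fold thresholds (log2 0.5 for J.gamma1, 1 for mouse), each library left out, the longest coding transcript as length and, chosen after seeing the data, trends on transcript length or GC content removed.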

Additional observations from a re-analysis of the deposited data

Results flagged for a closer look

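PPP3CA and PPP3R1 moved in opposite directions in the 2 systems, every library of the depleted group lying on 1 side of the controls in each. The log2 fold change of PPP3CA was 0.34 in J.gamma1 cells and that of Ppp3ca was -0.45 in mouse CD3+ T cells. The log2 fold change of PPP3R1 was 0.43 in J.gamma1 cells and that of Ppp3r1 was -0.13 in mouse CD3+ T cells. None of the 4 values passed its own test, and the difference between the systems was not tested.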

How the results depend on the processing

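The rise of RCAN3 in J.gamma1 cells kept its direction and its pass under every setting run, with a log2 fold change between 0.62 and 0.79. With DESeq2, 3 members were called higher, and with RLE scaling, counts divided by 2, the length trend removed or the GC trend removed, 2 were. Leaving out 1 library gave 1 to 3 members higher in J.gamma1 cells and 0 to 1 in the mouse. Over all genes, J.gamma1 counts ranged from 418 to 1863 higher and from 419 to 1384 lower, and mouse counts from 6 to 594 higher and from 1 to 65 lower, when 1 library was left out. With the filter loosened to genes that had any count the J.gamma1 counts were 319 and 396. DESeq2 gave 937 higher and 286 lower in the mouse, and 37 were lower with counts divided by 2 and 59 with the length trend removed.

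For J.gamma1 lists, calcium genes called higher were 1 with DESeq2, 2 with the length trend removed and 0 to 3 with 1 library left out. Calcineurin binding proteins called higher were 0 with the looser filter or the length trend removed and 0 to 1 with 1 library left out, and those called lower were 1 with RLE scaling, the looser filter, all rows or the GC trend removed and 0 to 3 with 1 library left out. NFAT kinases and transport genes called higher were 1 with DESeq2, RLE scaling, counts divided by 2 or either trend removed and 0 to 2 with 1 library left out, and those called lower were 0 with the looser filter and 0 to 2 with 1 library left out. NFAT5 targets called higher were 1 with upper-quartile scaling or all rows, 0 with the looser filter and 1 to 2 with 1 library left out. In the mouse, NFAT targets called higher were 8 with DESeq2 and 0 to 5 with 1 library left out, binding proteins 0 to 1, and NFAT5 targets called lower were 1 with DESeq2 and 0 to 1 with 1 library left out.

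Directions near 0 reversed. NFATC1 was -0.017 with the length trend removed and NFATC2 ran from -0.41 to 0.088 with 1 library left out. Nfatc3 ran from -0.025 to 0.094 with 1 library left out and was -0.11 with the length trend removed and -0.034 with the GC trend removed. With 1 library left out Ppp3cb ran from -0.13 to 0.0035, Rcan1 from -0.11 to 0.11 and Plcg1 from -0.19 to 0.12. With the longest coding transcript as length, PPP3CA made up 18.7% in sh-NC and 27.1% in sh-IRF2BP2 libraries, NFAT5 15.9% in sh-IRF2BP2, Ppp3ca 15.7% in KO and Nfat5 12.2% in KO libraries. The causes were not tested. Where 1 library is left in a group, it is assumed to vary like the others.

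Replicate numbers are shared between groups, and the deviations of same-numbered libraries correlated at 0.23 in J.gamma1 and -0.04 in mouse libraries, which with 2 numbers does not establish a pairing. With the replicate number as a block, 3 members were higher (NFAT5 at 0.94, adjusted p = 0.004, PPP3R1 and RCAN3) and 2 lower (PPP3CB and RCAN1) in J.gamma1 cells, 5 calcium genes were higher and 1 lower, 2 kinase and transport genes were higher, and over all genes 1884 were higher and 1663 lower. In the mouse, where the block leaves out WT replicate 3, 1 member was higher (Nfat5 at 0.84, adjusted p = 0.032), 48 genes were lower, 1 NFAT5 target was lower, and Ppp3cb reversed to 0.0056 and Plcg1 to 0.12.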
